A study of Mus musculus with 9 samples.

Results

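The addition of FGF-2 and EGF every 2 days was compared with their daily addition in adult olfactory bulb stem cells (aOBSCs), over the 3 arrays of the 2-day condition (C2) and the 3 arrays of the daily control (Ctr), which are 6 of the 9 arrays of the series. Arrays were assigned to a condition by their titles. All 45037 probe sets other than the Affymetrix controls were tested, and those with a single gene symbol stand for 18193 genes. aOBSCs are stem and progenitor cells of the adult mouse olfactory bulb that divide in response to FGF-2 and EGF and grow as floating neurospheres. Every group received both factors at 20 ng/ml: Ctr every 1 day, C2 every 2 days and the third condition, C4, every 4 days. All cultures had been maintained with daily addition until passage 3 and then for 2 further passages in their condition. RNA was collected after 7 days without a change of medium, so that C2 cells had last been given the factors 1 day before collection and C4 cells 3 days before. The cells of the study had been prepared from CD1 mice of 4 to 15 months or from adult C57Bl/6 mice, those of the array experiment from mice aged 7 and 15 months. The age and strain behind any single array are not given in the sources used here. P-values therefore measure only the spread between these samples.

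FGF-2 and EGF bind receptor tyrosine kinases and act through the ERK and PI3K pathways, which drive proliferation of neural stem cells and also raise glucose uptake, amino acid uptake and protein synthesis. Cells that are short of amino acids or of folding capacity activate the integrated stress response: phosphorylation of the initiation factor eIF2 lowers general translation, while the transcription factor ATF4 is translated and turns on genes for amino acid synthesis, import and tRNA charging. A second regulator of metabolism, HIF-1, is stabilised at low oxygen or by growth factor signalling and turns on glucose transporters and glycolytic enzymes.

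Values are log2 GCRMA values, on which a difference of 1 is a 2-fold change. Means below 4 lie close to the lowest readings of these arrays and are described as near the floor. Differences are C2 minus Ctr unless stated, and a gene passed when the adjusted p of limma, over all probe sets, was under 0.05. Most of the transcriptome differed little between C2 and Ctr. In total, 767 probe sets passed, which is 1.7% of those tested. Of the genes, 304 (1.67%) were higher and 154 (0.846%) lower in C2, and among the 9347 genes with a mean over 4 these shares were 3.21% and 1.57%. The median size of the difference in the 458 genes that passed was 0.365, and 375 of them changed by less than 1.5-fold. Without any regard to the test, the 3 C2 arrays all lay above the 3 Ctr arrays in 10.4% of genes and all below them in 6.35%. These 2 shares also count genes near the floor and were not taken among genes with a mean over 4 alone. For reference, 5.65% of genes were higher and 3.55% lower in C4 than in Ctr, and 4.29% were higher and 3.49% lower in C4 than in C2; the comparisons with Ctr share the control arrays. The number of calls depends on the setting: 237 probe sets passed with a replicate block, 371 in a fit of the Ctr and C2 arrays alone, 1825 after a filter on dim probe sets and 45 with a robust variance prior. With single arrays left out it was 421 without Ctr 1, 349 without Ctr 2, 516 without Ctr 3, 361 without C2 1, 351 without C2 2 and 323 without C2 3. The share of calls that were higher was 66.1%, and 51.5% after each array was centred on its median.

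**Figure D1:**
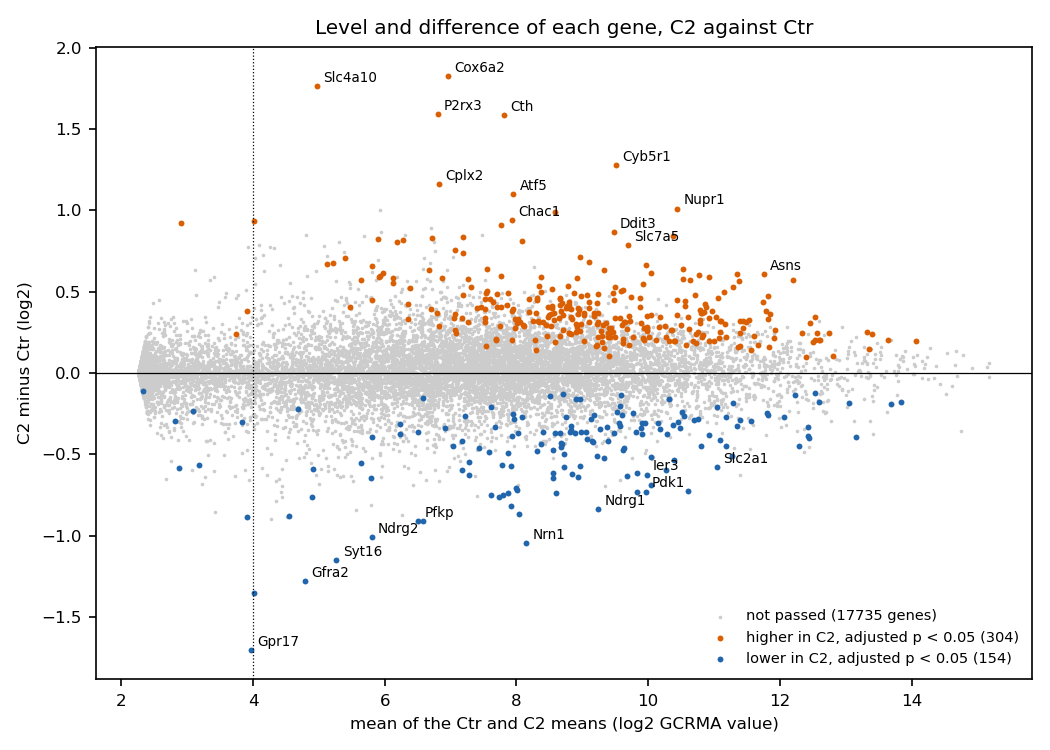
Difference between C2 and Ctr (log2, vertical axis) against the mean level of each of the 18193 genes (log2 GCRMA value, horizontal axis), 1 point per gene. The dotted line marks the floor of 4. Points that passed the test are coloured, 304 higher and 154 lower in C2, and most lie within 1 of the zero line.

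Arrays within a condition were alike. Pearson correlations over all probe sets were 0.99858 to 0.99859 between C2 arrays, 0.99851 to 0.99878 between Ctr arrays and 0.99746 to 0.99796 between the conditions, and no array stood apart. The 3' minus 5' difference of the Gapdh control probe sets, a measure of RNA integrity, ranged from -0.332 to -0.277 in Ctr and from -0.397 to -0.38 in C2. This measure moved with the condition in all 6 arrays, and its part in the results was not tested.

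Genes of the integrated stress response and of amino acid supply rose together in C2. Of 21 measured genes of the integrated stress response, 10 were higher (47.6%) and 1 was lower (4.76%). Over all genes these shares were 1.67% and 0.846%, and over genes with a mean over 4 they were 3.21% and 1.57%. The median difference of the list was 0.46, against 0.00 over all genes and 0.02 over genes with a mean over 4. Atf4, the transcription factor at the centre of the response, measured 10.90, 10.75 and 10.86 in Ctr and 11.25, 11.24 and 11.38 in C2, a difference of 0.46 (SE 0.062, adjusted p = 0.0243). Its partner Cebpg measured 8.73, 8.73 and 8.81 in Ctr and 9.46, 9.44 and 9.41 in C2 (difference 0.68, SE 0.027, adjusted p = 0.000559). Ddit3, which encodes the factor CHOP, measured 9.07, 8.96 and 9.10 in Ctr and 9.85, 9.92 and 9.94 in C2 (difference 0.86, SE 0.044, adjusted p = 0.00156). In all 3 genes every C2 array lay above every Ctr array. The further probe sets over the floor did not pass, with differences of 0.04 for Ddit3 and of 0.77 and 0.13 for Cebpg. Atf5, a related factor that is itself regulated at the level of translation, rose by 1.10 (adjusted p = 0.0106), from 7.41 in each Ctr array to between 8.44 and 8.56 in C2. Atf3, a repressor induced by stress, rose by 0.57 (adjusted p = 0.00812).

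Several targets and brakes of the response rose as well. Nupr1, a small stress-induced nuclear protein, measured 9.89, 9.91 and 10.01 in Ctr and 10.86, 10.94 and 11.04 in C2 (difference 1.01, SE 0.055, adjusted p = 0.00156). Chac1, an enzyme that degrades glutathione, rose by 0.94 (SE 0.099, adjusted p = 0.0112) from 7.56, 7.51 and 7.34 to 8.33, 8.36 and 8.53. The translation repressor Eif4ebp1 rose by 0.50 (adjusted p = 0.00614) and the mTORC1 inhibitor Sesn2 by 0.64 (adjusted p = 0.0429). Fgf21, a secreted factor, rose by 0.92 (adjusted p = 0.0486), but all its values were below the floor of 4. Trib3, a pseudokinase that inhibits ATF4, measured 7.05 in each Ctr array and 7.89, 7.86 and 7.94 in C2, and its difference of 0.85 did not pass (adjusted p = 0.0752). Ppp1r15a, the regulatory subunit of the eIF2 phosphatase, differed by 0.38 (adjusted p = 0.106). The kinases that phosphorylate eIF2 did not pass, with differences of -0.30 for Eif2ak3 (PERK), -0.24 for Eif2ak4 (GCN2), -0.07 for Eif2ak2 (PKR) and 0.07 for Eif2ak1 (HRI). The 1 member that fell was Ddit4 (REDD1), an mTORC1 inhibitor that is also induced by low oxygen, from 11.17, 11.17 and 11.11 to 10.97, 10.94 and 10.91 (difference -0.21, adjusted p = 0.0126). The count of 10 was 5 with the replicate block, 3 with the robust variance prior and 7 to 8 with single arrays left out; the call of Sesn2 was lost without any 1 of the 6 arrays.

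Enzymes that make serine, glycine and asparagine and feed the mitochondrial folate cycle were higher in C2 as well. Of 15 measured members 7 were higher (46.7%, against 1.67% of all genes and 3.21% of those with a mean over 4). None was lower, and the median difference was 0.32. Asns, asparagine synthetase, measured 11.48, 11.41 and 11.48 in Ctr and 12.06, 12.03 and 12.10 in C2 (difference 0.61, SE 0.036, adjusted p = 0.00218). Psph, the last enzyme of serine synthesis, measured 10.13, 10.24 and 10.24 in Ctr and 10.85, 10.81 and 10.86 in C2 (difference 0.64, SE 0.038, adjusted p = 0.00218). Mthfd2, of the mitochondrial folate cycle, measured 9.67, 9.59 and 9.66 in Ctr and 10.33, 10.24 and 10.35 in C2 (difference 0.66, SE 0.073, adjusted p = 0.0126). No array of one condition entered the range of the other in these enzymes. Phgdh, the first enzyme of serine synthesis, rose by 0.47 (adjusted p = 0.0365), Shmt2, which turns serine into glycine in mitochondria, by 0.48 (adjusted p = 0.0246), Aldh1l2, a mitochondrial folate enzyme, by 0.46 (adjusted p = 0.0244) and Got1, an aspartate aminotransferase, by 0.27 (adjusted p = 0.0253). Psat1, the middle enzyme of serine synthesis, differed by 0.28 (adjusted p = 0.232) and the cytosolic Shmt1 by -0.16 (adjusted p = 0.639). The count of 7 was 3 with the block, 4 in the fit of 6 arrays and 2 with the robust prior. It was 4 without Ctr 1, 2 without Ctr 2, 3 without Ctr 3, 2 without C2 1, 3 without C2 2 and 2 without C2 3, while Asns and Psph passed in all 6 of these fits.

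Of the 55 lists examined, the largest share of genes that rose was in the aminoacyl-tRNA synthetases, the enzymes that load amino acids onto tRNAs for cytosolic translation. Of 19 measured, 13 were higher (68.4%, against 1.67% of all genes and 3.21% of those with a mean over 4). In the same list 1 was lower (5.26%, against 0.846% and 1.57%), and the median difference was 0.35. Aars, for alanine, measured 10.35, 10.38 and 10.35 in Ctr and 10.87, 10.95 and 10.96 in C2 (difference 0.57, SE 0.030, adjusted p = 0.00156). Its further probe set differed by 0.43 without passing (adjusted p = 0.0625). Nars, for asparagine, measured 11.14, 11.02 and 11.11 in Ctr and 11.67, 11.65 and 11.66 in C2 (difference 0.57, SE 0.030, adjusted p = 0.00156), and Lars, for leucine, rose by 0.59 (SE 0.034, adjusted p = 0.00201). Wars, for tryptophan, had the largest difference of the list, 0.81 (adjusted p = 0.0107), and its 3 further probe sets over the floor rose by 0.88 to 1.14. Qars, for glutamine, went the other way: it measured 9.51, 9.39 and 9.54 in Ctr and 8.97, 9.03 and 8.91 in C2 (difference -0.51, SE 0.079, adjusted p = 0.0368). Vars, Farsb, Hars, Kars and Farsa did not pass, with differences of 0.42, 0.23, 0.14, 0.12 and -0.02. The count of 13 was 8 with the block, 7 in the fit of 6 arrays, 3 with the robust prior, 7 without Ctr 2 and 8 without C2 3. The call of Qars was lost without any 1 array, with the block and with the robust prior.

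Among carriers that import amino acids, a few rose. Of 18 measured transporters 4 were higher (22.2%, against 1.67% of all genes) and none was lower, with a median difference of 0.08. Slc3a2, the heavy chain shared by several carriers, measured 11.09, 11.02 and 11.03 in Ctr and 11.64, 11.65 and 11.69 in C2 (difference 0.61, SE 0.023, adjusted p = 0.000559). Its light chain Slc7a5 (LAT1, for large neutral amino acids) measured 9.36, 9.31 and 9.24 in Ctr and 10.09, 10.04 and 10.14 in C2 (difference 0.79, SE 0.077, adjusted p = 0.00944). Slc7a1, for arginine and lysine, measured 9.86, 9.98 and 10.04 in Ctr and 10.82, 10.71 and 10.88 in C2 (difference 0.84, SE 0.072, adjusted p = 0.00626). These 3 genes passed without each array in turn. The glycine transporter Slc6a9 rose by 0.40 (adjusted p = 0.0374), and Slc7a11, the light chain of the cystine carrier, differed by 0.85 without passing (adjusted p = 0.0534). Slc38a2 measured 11.74, 11.72 and 11.82 in Ctr and 11.68, 11.70 and 11.65 in C2 (difference -0.09, adjusted p = 0.653). Among 19 enzymes of cysteine, methionine and glutathione metabolism only Cth passed: the 3 Ctr arrays read 6.74, 7.05 and 7.26 and the 3 C2 arrays 8.60, 8.51 and 8.70. Its call was lost without Ctr 2, C2 1 or C2 3.

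Chaperones and regulators of the unfolded protein response of the endoplasmic reticulum, a related pathway, formed a separate list. Of 21 measured members none was higher and 1 was lower (4.76%, against 0.846% of all genes), with a median difference of -0.05. That gene was Xbp1, a transcription factor of the response, which fell by 0.28 (adjusted p = 0.0451, a call lost without any 1 array). Among heat shock proteins, the mitochondrial chaperones Hspa9 and Hspd1 rose by 0.44 (adjusted p = 0.0353) and 0.20 (adjusted p = 0.0317), and the cytosolic Hspa8 fell by 0.19 (adjusted p = 0.0334), with all 3 calls lost in 5 of the 6 fits that left out 1 array. A further Hspa8 probe set fell by 0.75 (adjusted p = 0.0057), while others over the floor differed by -0.31 and -0.17 without passing.

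In C4 many of the amino acid genes were lower than in the control. Of the integrated stress response 10 members were lower in C4 than in Ctr and none was higher, with a median of -0.40, and of the synthetases 12 were lower and none was higher, with a median of -0.40. C4 minus Ctr was -0.86 for Asns (adjusted p = 0.00014), -1.11 for Nupr1 (adjusted p = 0.000209), -0.71 for Cebpg (adjusted p = 0.0001), -0.66 for Slc3a2 (adjusted p = 8.3e-05) and -0.40 for Aars (adjusted p = 0.00089). Tested directly, C4 was lower than C2 in 15 of the 21 stress response genes, 10 of the 15 enzymes and 15 of the 19 synthetases, and higher in none, 1 and none. For Asns the C4 minus C2 difference was -1.46 (adjusted p = 1.5e-05) and for Nupr1 -2.12 (adjusted p = 1.7e-05).

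**Figure D2:**
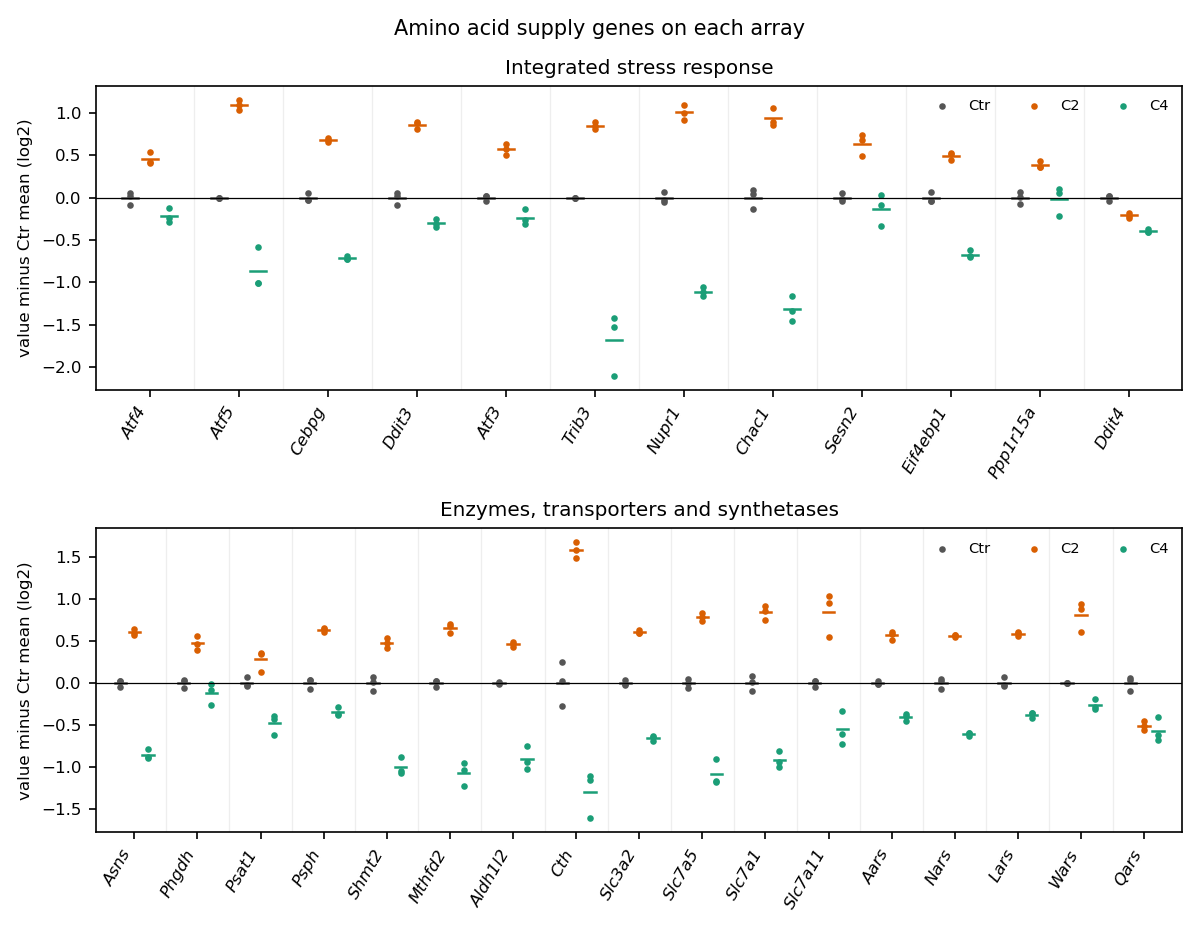
Value of each array minus the Ctr mean of the gene (log2, vertical axis), for 12 genes of the integrated stress response and 17 genes of amino acid synthesis, import and tRNA charging, chosen as examples of their lists. Points are arrays, 3 per condition, and short lines are means. The C2 points lie above the Ctr points in every gene shown except Ddit4 and Qars.

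ATF4 and the C/EBP proteins bind together at amino acid response elements, so the promoters of these genes were searched for the letters TGATGNAA on either strand, in the 250 bases before the gene start (RefSeq, GRCm38.p6). Promoters were at hand for 14452 of the 18193 genes, of which 410 (2.84%) held a match. Matches stood in 6 of 20 genes of the integrated stress response (30.0%), in 2 of 14 serine, asparagine and folate enzymes, in 3 of 12 synthetases, in 1 of 13 transporters and in none of 31 glycolysis and hypoxia genes. The promoters of Nupr1 (chr7:126625471-126625720, minus strand), Chac1 (chr2:119350992-119351241, plus strand), Asns (chr6:7693210-7693459, minus strand) and Atf3 (chr1:191183334-191183583, minus strand) are printed because these genes rose in C2 and hold a match, which is in capitals. Each sequence runs 5′ to 3′ on the gene's strand and ends at the base before the start. Counted back from the start, the match begins at position -110 in Nupr1 and Atf3, -193 in Chac1 and -23 in Asns, and in Nupr1, Chac1 and Atf3 it reads on the opposite strand. A match describes the letters only.
Nupr1: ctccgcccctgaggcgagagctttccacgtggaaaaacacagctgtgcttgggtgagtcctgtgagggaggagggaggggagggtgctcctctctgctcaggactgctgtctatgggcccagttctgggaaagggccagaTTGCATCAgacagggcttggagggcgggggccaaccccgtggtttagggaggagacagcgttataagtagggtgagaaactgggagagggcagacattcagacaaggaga
Chac1: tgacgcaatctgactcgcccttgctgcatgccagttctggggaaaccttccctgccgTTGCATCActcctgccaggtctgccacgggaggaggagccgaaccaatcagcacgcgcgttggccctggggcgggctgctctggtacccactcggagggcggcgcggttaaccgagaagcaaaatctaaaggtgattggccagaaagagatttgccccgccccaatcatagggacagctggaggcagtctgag
Asns: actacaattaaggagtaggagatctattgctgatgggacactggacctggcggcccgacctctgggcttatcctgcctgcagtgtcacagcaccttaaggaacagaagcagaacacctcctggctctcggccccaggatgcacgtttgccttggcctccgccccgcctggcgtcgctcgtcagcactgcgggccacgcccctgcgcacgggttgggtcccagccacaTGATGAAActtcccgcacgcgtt
Atf3: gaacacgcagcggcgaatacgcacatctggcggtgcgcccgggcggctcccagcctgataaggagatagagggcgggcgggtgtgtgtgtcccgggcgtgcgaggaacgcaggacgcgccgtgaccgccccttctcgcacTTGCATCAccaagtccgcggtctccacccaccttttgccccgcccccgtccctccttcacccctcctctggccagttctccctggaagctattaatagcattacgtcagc

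Genes of glucose uptake, glycolysis and the response to low oxygen were the largest group that fell in C2. Of 33 measured members 15 were lower (45.5%, against 0.846% of all genes and 1.57% of those with a mean over 4). None was higher, and the median difference was -0.33. In 26 of the 33 the 3 C2 arrays all lay below the 3 Ctr arrays, against 6.35% of all genes. The glucose transporter Slc2a1 (GLUT1) measured 11.36, 11.30 and 11.35 in Ctr and 10.73, 10.74 and 10.80 in C2 (difference -0.58, SE 0.040, adjusted p = 0.00359). The neuronal type transporter Slc2a3 fell by 0.42 (adjusted p = 0.0175). Among the glycolytic enzymes in their order in the pathway, Hk2 (hexokinase) fell by 0.45 (adjusted p = 0.0281), Pfkp (phosphofructokinase, platelet type) by 0.91 (SE 0.088, adjusted p = 0.00909), Tpi1 by 0.39 (adjusted p = 0.0106), Pgk1 by 0.18 (adjusted p = 0.0244), Pgam1 by 0.33 (adjusted p = 0.00971) and Eno2 by 0.82 (SE 0.075, adjusted p = 0.00735). Pfkp measured 6.79, 7.04 and 7.05 in Ctr and 5.92, 6.07 and 6.16 in C2. Eno2 measured 8.23, 8.47 and 8.29 in Ctr and 7.50, 7.42 and 7.61 in C2. Ldha, which makes lactate, differed by -0.18 and did not pass (adjusted p = 0.0534). Neither did the isoforms Hk1 (-0.09), Pfkm (-0.09), Pfkl (-0.27), Aldoa (-0.29), Aldoc (-0.08) and Pkm (-0.11).

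Several genes known as HIF-1 targets outside the glycolytic pathway fell too. Ndrg1, induced by low oxygen, measured 9.66, 9.62 and 9.70 in Ctr and 8.88, 8.85 and 8.72 in C2 (difference -0.84, SE 0.063, adjusted p = 0.00496), and its 4 further probe sets over the floor differed by -0.54 to -1.04, 3 of them passing. Bnip3, a mitophagy receptor, measured 11.45, 11.38 and 11.37 in Ctr and 10.95, 10.94 and 10.98 in C2 (difference -0.45, SE 0.028, adjusted p = 0.0023). Pdk1, the kinase that keeps pyruvate out of the mitochondria, measured 10.33, 10.37 and 10.29 in Ctr and 9.68, 9.62 and 9.49 in C2 (difference -0.73, SE 0.076, adjusted p = 0.0106). Ctr and C2 arrays did not overlap in any of these. The collagen prolyl hydroxylases P4ha1 and P4ha2 fell by 0.37 (adjusted p = 0.0276) and 0.65 (adjusted p = 0.017), the histone demethylase Kdm3a by 0.38 (adjusted p = 0.011) and the MYC antagonist Mxi1 by 0.36 (adjusted p = 0.0126). Adm (adrenomedullin) and Vegfa had differences of -0.53 (adjusted p = 0.092) and -0.47 (adjusted p = 0.103). Car9, another known target, stood at 2.27 on all arrays. Outside the list, Gbe1, the glycogen branching enzyme, measured 8.47, 8.59 and 8.34 in Ctr and 7.66, 7.64 and 7.52 in C2 (difference -0.86, SE 0.067, adjusted p = 0.00546). The count of 15 was 7 with the block, 9 in the fit of 6 arrays, 3 with the robust prior and 10 to 13 with single arrays left out.

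In C4 the same list had 22 members lower and 1 higher than in Ctr, with a median of -0.40, and the 2 conditions differed from each other in 8 of the 33 genes, 5 lower and 3 higher in C4. Slc2a1 stood at 10.76 in C2 and 10.74 in C4 (C4 minus C2 -0.02, adjusted p = 1), and Bnip3 differed by 0.05 (adjusted p = 0.64). Pfkp and Hk2 were lower in C4 than in C2, by -1.28 (adjusted p = 0.0006) and -0.82 (adjusted p = 0.0011), whereas Kdm3a and Mxi1 were higher, by 0.20 (adjusted p = 0.038) and 0.26 (adjusted p = 0.015).

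The binding core of HIF-1, ACGTG on either strand (a pattern that CACGTG contains), was found in the same 250 bases of 3245 of 14452 genes (22.5%), in 19 of the 31 genes of the list with a promoter (61.3%) and in 8 of the 13 of these that fell (61.5%). The promoters of P4ha2 (chr11:54100674-54100923, plus strand), Slc2a1 (chr4:119108495-119108744, plus strand) and Bnip3 (chr7:138909507-138909756, minus strand) are printed as those of genes that fell in C2, with the core in capitals. It begins at position -78 in P4ha2 and -36 in Slc2a1, and in Bnip3 it lies within the palindrome CACGTG, which reads alike on both strands.
P4ha2: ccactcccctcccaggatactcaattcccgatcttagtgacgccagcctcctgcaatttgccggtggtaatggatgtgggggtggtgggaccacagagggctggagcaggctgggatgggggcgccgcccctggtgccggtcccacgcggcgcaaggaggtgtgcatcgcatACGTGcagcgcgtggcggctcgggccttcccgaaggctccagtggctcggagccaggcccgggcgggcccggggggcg
Slc2a1: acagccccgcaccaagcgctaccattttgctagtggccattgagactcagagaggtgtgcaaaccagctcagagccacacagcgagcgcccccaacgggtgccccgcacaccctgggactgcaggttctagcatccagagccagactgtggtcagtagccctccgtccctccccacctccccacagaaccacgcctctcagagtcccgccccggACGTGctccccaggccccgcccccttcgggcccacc
Bnip3: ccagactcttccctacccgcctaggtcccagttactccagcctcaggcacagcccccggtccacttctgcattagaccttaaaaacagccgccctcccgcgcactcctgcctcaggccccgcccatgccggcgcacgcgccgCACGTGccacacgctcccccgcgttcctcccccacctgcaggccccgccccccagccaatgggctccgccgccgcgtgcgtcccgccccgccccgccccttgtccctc

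Some mitochondrial genes rose by small amounts. Of 38 measured subunits of the respiratory chain and ATP synthase, 8 were higher in C2 (21.1%) and none was lower, with a median difference of 0.19. The share higher was 1.67% over all genes and 3.21% over genes with a mean over 4. In 24 of the 38 the C2 arrays all lay above the Ctr arrays, against 10.4% of all genes, a share that also counts genes near the floor. Sdhb, the iron-sulphur subunit of complex II, measured 11.70, 11.61 and 11.67 in Ctr and from 11.96 to 12.02 in C2 (difference 0.33, SE 0.033, adjusted p = 0.0099). Subunits of complex I rose by 0.25 (Ndufa10, adjusted p = 0.0138), 0.16 (Ndufa9, adjusted p = 0.0163), 0.24 (Ndufv2, adjusted p = 0.0386) and 0.17 (Ndufv1, adjusted p = 0.0431), cytochrome c1 (Cyc1) by 0.21 (adjusted p = 0.0244) and Cox5b of complex IV by 0.31 (adjusted p = 0.0429). Cytochrome c (Cycs) and the ATP synthase subunits Atp5a1 and Atp5b differed by 0.01, -0.01 and 0.06. The 8 calls became 1 with the block, 2 in the fit of 6 arrays, 16 with the filter and 1 with the robust prior, and they were 4 without Ctr 1, 2 without Ctr 2, 2 without C2 1, 4 without C2 2 and 3 without C2 3. After centring of the arrays 6 passed.

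The largest increase among the 18193 genes was in the same list, Cox6a2, the subunit VIa of cytochrome c oxidase otherwise found in heart and skeletal muscle (chromosome 7, 128205435 to 128206366, GRCm38). It measured 6.19, 5.86 and 6.11 in Ctr and 7.73, 7.95 and 7.95 in C2, a 3.55-fold increase (log2 difference 1.83, SE 0.11, adjusted p = 0.00227) that passed in every setting tried, the robust prior included. In C4 it stood at 5.62, 5.73 and 5.47, so that C2 alone was high, and C4 minus C2 was -2.27 (adjusted p = 0.000163). The widely expressed isoform Cox6a1 measured 14.20, 14.21 and 14.20 in Ctr and 14.40, 14.34 and 14.34 in C2 (difference 0.15, adjusted p = 0.0542).

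**Figure D3:**
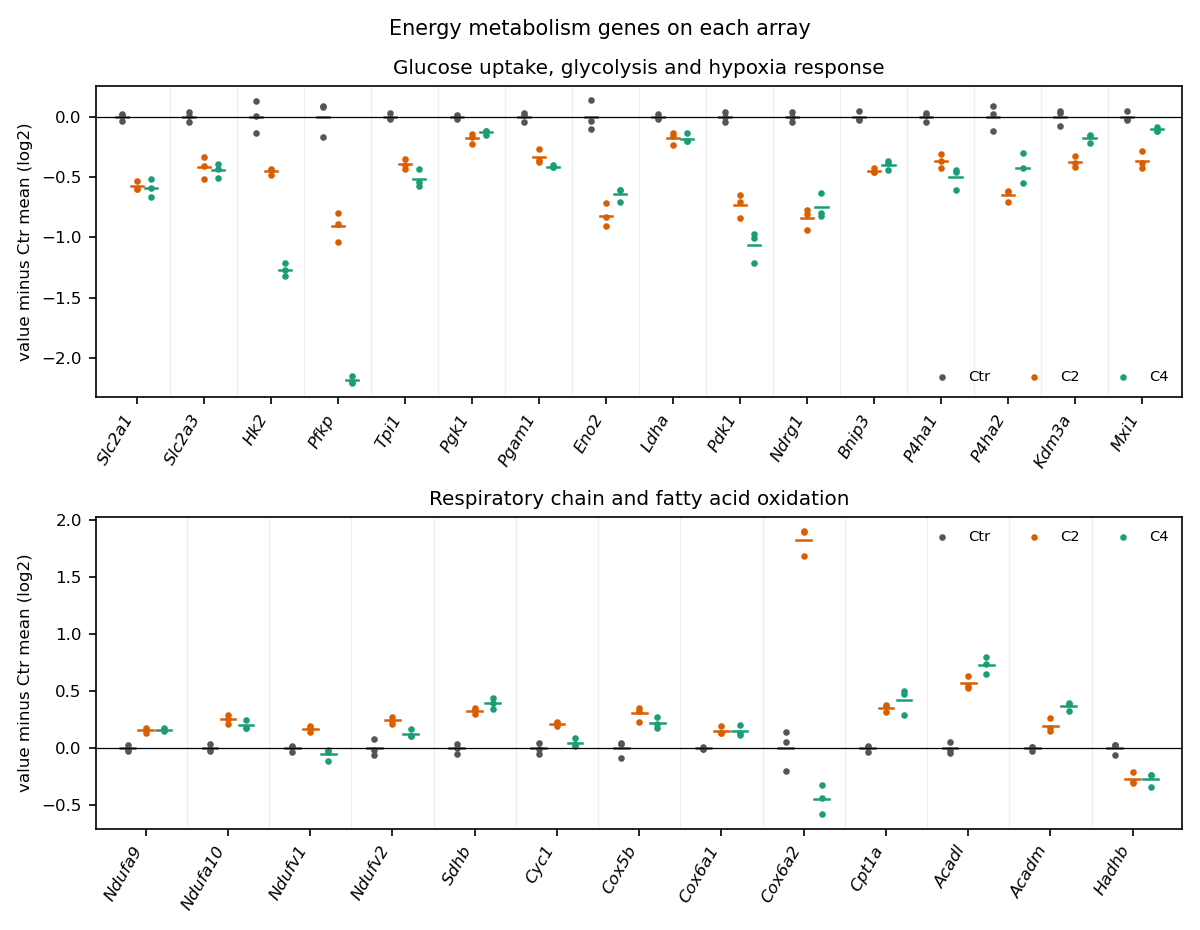
Value of each array minus the Ctr mean of the gene (log2, vertical axis) for 16 genes of glucose uptake, glycolysis and the hypoxia response and for 13 genes of the respiratory chain and fatty acid oxidation. Points are arrays and short lines are means of 3 arrays. The C2 points of the upper genes lie below the Ctr points, Pfkp and Hk2 are lower still in C4, and Cox6a2 is high in C2 only.

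Some lipid genes passed. Of 23 measured genes of fatty acid oxidation and lipid breakdown 4 were higher (17.4%, against 1.67% of all genes) and 1 was lower (4.35%, against 0.846%). Among genes with a mean over 4 these shares were 3.21% and 1.57%. Acadl, the long-chain acyl-CoA dehydrogenase, measured 11.90, 11.87 and 11.97 in Ctr and 12.45, 12.44 and 12.55 in C2 (difference 0.57, SE 0.050, adjusted p = 0.00678). The thioesterase Acot2 rose by 0.38 (adjusted p = 0.000559), Cpt1a, which admits fatty acids to mitochondria, by 0.36 (adjusted p = 0.0361) and Acadm by 0.20 (adjusted p = 0.0455). The other Cpt1a probe sets over the floor differed by -0.01 and -0.30 and did not pass. Hadhb, a subunit of the trifunctional protein of the same pathway, fell by 0.27 (adjusted p = 0.0386). Of 20 genes of fatty acid synthesis and activation none was higher and 3 were lower: Acss2, which activates acetate, fell by 0.62 (SE 0.063, adjusted p = 0.00996), and the acyl-CoA synthetases Acsl3 and Acsl4 by 0.34 (adjusted p = 0.0126) and 0.61 (adjusted p = 0.0369). Of 20 genes of cholesterol synthesis, none was higher and 2 were lower (10.0%, against 0.846% of all genes and 1.57% of those with a mean over 4). These were the cyclase Lss, by 0.44 (adjusted p = 0.0225), and the sterol carrier Stard4, by 0.43 (adjusted p = 0.0124). The C2 arrays lay below the Ctr arrays in 13 of the 20, against 6.35% of all genes. All 20 had a mean over 4, whereas the 6.35% also counts genes near the floor. This count of 2 was 8 with the filter on dim probe sets, 5 after centring, 5 where the probe sets of a gene were averaged, 3 without constant probe sets, 3 without cross-hybridising probe sets, 1 with the block, 0 with the robust prior, 0 without C2 3 and 1 without any other single array. The calls of Cpt1a, Acsl4, Hadhb and Lss were lost without any 1 of the 6 arrays, that of Acsl3 without C2 2 or C2 3 and that of Stard4 without C2 3.

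ERK signalling induces its own inhibitors, so that their mRNAs follow growth factor signalling. Of 18 measured feedback inhibitors and ETS factors of the ERK pathway, none was higher and 3 were lower (16.7%). The share lower was 0.846% over all genes and 1.57% over genes with a mean over 4. The median difference was -0.08. Ier3, an early response gene, measured 10.28, 10.23 and 10.35 in Ctr and 9.65, 9.66 and 9.68 in C2 (difference -0.62, SE 0.028, adjusted p = 0.00103), and it passed in every setting. Phlda1 fell by 0.42 (adjusted p = 0.00812) and the MAP kinase phosphatase Dusp1 by 0.58 (adjusted p = 0.0233, lost in 5 of the 6 fits that left out 1 array). The classical feedback genes did not pass: Spry4 measured 10.50, 10.41 and 10.06 in Ctr and 9.78, 9.85 and 9.75 in C2 (difference -0.53, adjusted p = 0.126), and Dusp6, Etv5 and Spry2 differed by -0.13 (adjusted p = 0.297), -0.21 (adjusted p = 0.536) and 0.14 (adjusted p = 0.552). In C4, 8 of the list were lower than in Ctr and none was higher, among them Spry4 by -1.46 (adjusted p = 0.0014) and Dusp6 by -0.57 (adjusted p = 0.00087), and both were lower in C4 than in C2 (adjusted p = 0.009 and 0.0023). No ligand or receptor of the FGF and EGF families passed among 20 measured in C2, Egfr differing by 0.11 (adjusted p = 0.17) and Fgfr1 by -0.16 (adjusted p = 0.735).

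Among 21 immediate early genes, which are transcribed within minutes of a stimulus, 2 were lower (9.52%, against 0.846% of all genes). The 1 that was higher (4.76%, against 1.67%) was Atf3. Nr4a1, an orphan nuclear receptor, measured 8.58, 8.58 and 8.49 in Ctr and 8.12, 8.03 and 8.05 in C2 (difference -0.48, SE 0.037, adjusted p = 0.00535), and Egr2 fell by 0.26 (adjusted p = 0.0286, lost without any 1 array). The median difference of the list was -0.16. In 10 of the 21 the C2 arrays all lay below the Ctr arrays and in 1 all above, against 6.35% and 10.4% of all genes. The count of 2 lower was 5 with the filter on dim probe sets, 5 after centring, 1 with the block and 0 with the robust prior. Fos and Egr1 differed by -0.07 (adjusted p = 0.505) and -0.04 (adjusted p = 0.735). In C4 these genes were above the control, Nr4a1 by 0.70 (adjusted p = 0.00025), Egr2 by 0.48 (adjusted p = 0.00097), Fos by 0.55 (adjusted p = 0.00023) and Egr1 by 0.50 (adjusted p = 0.00069), and above C2 in all 4 tests of the difference, the largest adjusted p being 0.00044. The transcription factor Foxo3, which PI3K signalling keeps out of the nucleus, fell by 0.32 (adjusted p = 0.00935), and the FOXO target Ccng2 measured 11.02, 10.96 and 10.93 in Ctr and 10.26, 10.25 and 10.24 in C2 (difference -0.72, SE 0.049, adjusted p = 0.00304). With Txnip, which fell by 0.27 (adjusted p = 0.0464), 3 of 24 FOXO factors and targets were lower and none was higher. The 3 are 12.5% of the list, against 0.846% of all genes and 1.57% of those with a mean over 4. The list had a median of -0.16. The call of Txnip was lost without any 1 array, and its second probe set differed by -0.11 (adjusted p = 0.735).

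Few proliferation genes passed. Of 42 genes of DNA replication, 1 was lower (2.38%, against 0.846% of all genes), the helicase subunit Mcm4 by 0.61 (adjusted p = 0.0286). Its second probe set over the floor differed by -0.09 (adjusted p = 0.388). Of 39 genes of G2 and mitosis 1 was higher (2.56%, against 1.67%), Nusap1 by 0.10 (adjusted p = 0.0441). In the same list 1 was lower (2.56%, against 0.846%), Anln by 0.26 (adjusted p = 0.0322). The medians were -0.08 and -0.02. The call of Nusap1 was lost without any 1 array, that of Anln in 4 and that of Mcm4 in 5 of the 6 fits, and the second Anln probe set differed by 0.11 (adjusted p = 1). Cdkn2b, an inhibitor of the G1 kinases, measured 8.70, 8.55 and 8.65 in Ctr and 9.25, 9.17 and 9.24 in C2 (difference 0.58, SE 0.049, adjusted p = 0.00626). Of 30 Myc targets and ribosome biogenesis genes 2 were higher (6.67%, against 1.67% of all genes). These were the spermidine synthase Srm, by 0.49 (adjusted p = 0.0126), and fibrillarin, Fbl, by 0.28 (adjusted p = 0.0307, lost in 5 of the 6 fits). None of 27 cytosolic ribosomal protein genes passed.

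**Figure D4:**
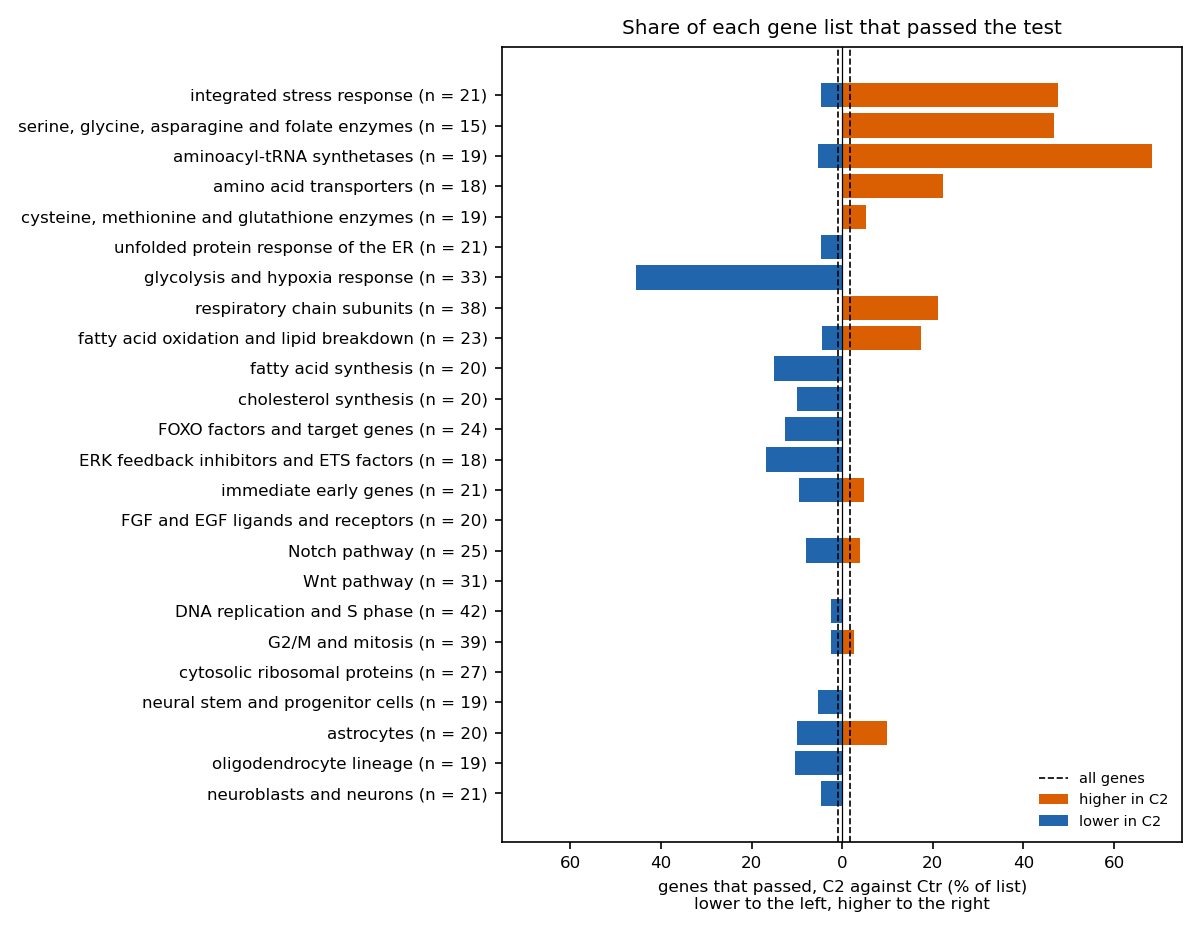
Percent of the measured genes of each list that passed the test of C2 against Ctr, higher to the right and lower to the left of zero. Dashed lines are the shares over all genes, 1.67% higher and 0.846% lower. The synthetases (68.4% higher), the stress response (47.6% higher) and the serine, asparagine and folate enzymes (46.7% higher) reach furthest to the right, and the glycolysis and hypoxia list (45.5% lower) reaches furthest to the left.

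The labelled cell type was checked against its markers. Of 19 measured markers of neural stem and progenitor cells 18 had a mean over 4, and Prom1 (CD133) stood at 2.27 on all arrays. Fabp7, a radial glial fatty acid carrier, lay at 14.45 to 14.49 in Ctr and 14.59 to 14.60 in C2 (adjusted p = 0.0639). Nes, the filament protein nestin, measured 5.45, 5.77 and 5.93 in Ctr and 5.52, 5.55 and 5.88 in C2 (difference -0.06, 95% interval -0.52 to 0.40). The groups overlapped in Nes, and in Fabp7 every C2 array was above every Ctr array. The summed log2 level of the 19 markers was 168.45 to 169.0 in Ctr and 167.49 to 168.06 in C2. Cd24a, a surface protein of progenitors and neuroblasts, was the 1 stem cell marker to pass and fell by 0.46 (adjusted p = 0.00734). In RNA of whole cultures, fewer cells of a type and less RNA per cell cannot be told apart. The summed level of 20 astrocyte markers was 178.25 to 179.08 in Ctr and 177.46 to 178.81 in C2. Of the 20, 2 were higher (10.0%, against 1.67% of all genes), Apoe by 0.24 (adjusted p = 0.0251) and Acsbg1 by 0.22. Another 2 were lower (10.0%, against 0.846%). One of these was Aldh1l1, a folate enzyme and astrocyte marker, which measured 8.10, 8.04 and 8.22 in Ctr and 7.24, 7.42 and 7.42 in C2 (difference -0.76, SE 0.080, adjusted p = 0.0107). The other was Ndrg2, at 6.24, 6.34 and 6.34 in Ctr and 5.45, 5.05 and 5.39 in C2, a call lost without Ctr 1, Ctr 2, Ctr 3 or C2 3. Gfap was near the floor, at 3.49, 3.77 and 3.77 in Ctr and 3.77, 3.80 and 4.38 in C2 (adjusted p = 0.735). In C4, Aldh1l1 and Ndrg2 were above the control, by 1.11 (adjusted p = 0.000782) and 1.72 (adjusted p = 0.000716), and the C2 mean was the lowest of the 3 conditions in both genes.

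Of 19 markers of the oligodendrocyte lineage 2 were lower (10.5%, against 0.846% of all genes) and none was higher. Olig1, a transcription factor of progenitors, measured 13.84, 13.77 and 13.72 in Ctr and 13.79, 13.74 and 13.75 in C2 (difference -0.01, 95% interval -0.10 to 0.07). The myelin enzyme Cnp measured 10.92, 10.78 and 10.85 in Ctr and 10.60, 10.54 and 10.53 in C2 (difference -0.29, SE 0.039, adjusted p = 0.0236). Gpr17, a receptor of committed precursors, was read at 4.87, 4.87 and 4.74 in Ctr and at 3.12, 3.62 and 2.63 in C2, where all values were below the floor. Both calls were lost in 4 of the 6 fits that left out 1 array. By quantitative RT-PCR the paper reports the opposite direction for Gpr17, higher in C2 than in the controls. The myelin genes Mbp and Mog stood at 2.27 on all 3 C2 arrays. The summed log2 level of the 19 markers was 88.98 to 89.93 in Ctr and 85.56 to 86.68 in C2, and that of 21 markers of neuroblasts and neurons, of which 5 were over the floor and 1 (Cd24a) passed, was 90.29 to 90.74 in Ctr and 88.18 to 88.76 in C2. Both sums were lower on every C2 array than on any Ctr array, as was that of the stem cell markers. Of the 19 oligodendrocyte markers 8 had a mean over 4, so their sum also counts readings near the floor. Gpr17, below the floor in C2, alone differed by -1.71. Markers of cells from outside the neural lineage were at or near the floor: over 4 were 1 of 14 markers of microglia and macrophages, none of 11 of endothelial cells, 2 of 12 of pericytes and fibroblasts, none of 10 of ependymal cells and 2 of 9 of olfactory ensheathing cells, and none of these lists had a gene that passed. Their summed levels in Ctr and C2 were 39.77 to 39.84 and 39.09 to 39.41, 24.99 to 25.13 and 24.99 to 25.42, 34.51 to 34.80 and 34.40 to 34.50, 26.28 to 26.77 and 26.38 to 26.81, and 37.99 to 38.41 and 38.83 to 39.59, in that order. Of these, the sums of microglia and pericytes lay lower and that of ensheathing cells higher on every C2 array than on any Ctr array. The ensheathing list holds Fabp7 and S100b, which also stand in the stem cell and astrocyte lists. Its sum is therefore not particular to ensheathing cells. The part of all the marker sums that moved with the condition in the other results was not tested.

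**Figure D5:**
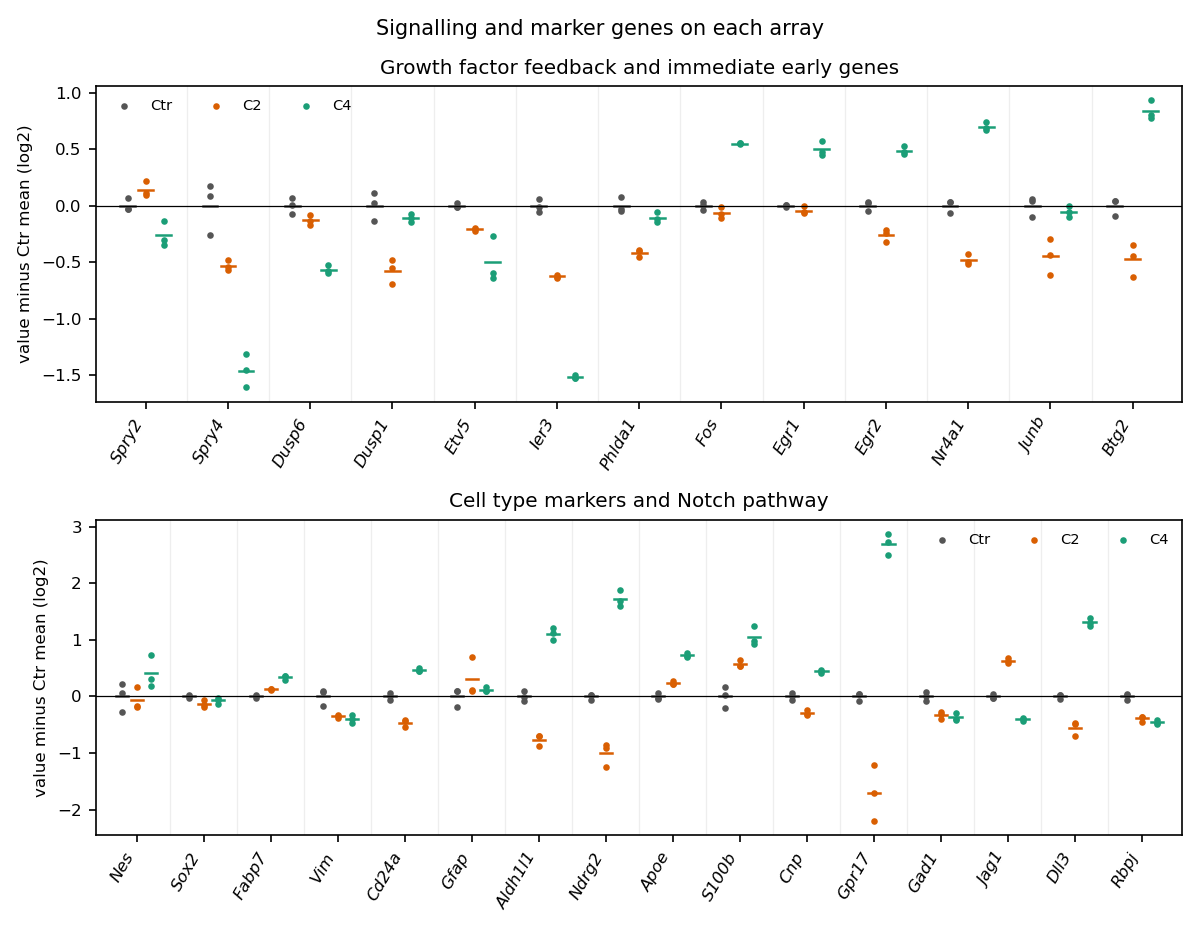
Value of each array minus the Ctr mean of the gene (log2, vertical axis) for 13 growth factor feedback and immediate early genes and for 16 marker and Notch pathway genes. Points are arrays and short lines are means of 3 arrays. Spry4 and Ier3 are lowest in C4, Aldh1l1, Ndrg2 and Gpr17 are lowest in C2 and highest in C4, and Jag1 is highest in C2.

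Among signalling pathways of neural stem cells, Notch genes had 1 member higher (4.0%, against 1.67% of all genes) and 2 lower (8.0%, against 0.846%) of 25. Besides the ligand Jag1, which was 8.99, 8.99 and 9.06 in Ctr and 9.65, 9.60 and 9.70 in C2 (its second probe set over the floor differed by 0.07, adjusted p = 1), the nuclear effector Rbpj fell by 0.39 (adjusted p = 0.00936) and the inhibitory ligand Dll3 by 0.55 (adjusted p = 0.0211). None of 31 Wnt pathway genes passed. Of 21 neurotrophic factors and receptors, Bdnf rose by 0.55 (adjusted p = 0.0206) from 5.90, 5.75 and 5.89 to 6.33, 6.44 and 6.43, a call lost without any 1 array, while the receptor Gfra2 and neuritin, Nrn1, were lower. C4 was below Ctr in Bdnf, by -0.94 (adjusted p = 0.00091).

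Several of the largest increases lay outside the groups described so far. Slc4a10, a bicarbonate transporter, rose by 1.76 (adjusted p = 0.000101), from 4.08 on each Ctr array to between 5.80 and 5.93 in C2. Cyb5r1, a cytochrome b5 reductase, rose by 1.28 (adjusted p = 7.5e-05), from 8.86, 8.93 and 8.82 to 10.15, 10.15 and 10.16. Both passed in every setting. Cplx2 rose by 1.16 (adjusted p = 0.0082), but its other probe sets over the floor differed by 0.62 and 0.27 without passing. Slc25a33, a mitochondrial carrier of pyrimidine nucleotides that insulin-like growth factor induces, measured 7.31 on each Ctr array and 8.31, 8.16 and 8.19 in C2 (difference 0.91, SE 0.056, adjusted p = 0.00224). Cd93, a C-type lectin of endothelial and blood cells, measured 8.09, 8.06 and 8.13 in Ctr and 9.07, 9.00 and 9.18 in C2 (difference 0.99, SE 0.082, adjusted p = 0.00625), and its second probe set rose by 1.01 (adjusted p = 0.0421), although the endothelial list as a whole was at the floor. Mknk1, a kinase of the cap-binding factor eIF4E downstream of ERK, rose by 0.83 (adjusted p = 0.00626), from 6.75, 6.67 and 6.90 to 7.69, 7.54 and 7.59. The lipid carrier Stard5 rose by 0.82 (adjusted p = 0.0113), the vesicle priming factor Cadps by 0.82 (adjusted p = 0.0207), the endosomal exchanger Slc9a9 by 0.83 (adjusted p = 0.0332) and the phosphatase Dusp14 by 0.80 (adjusted p = 0.0349). The calls of Slc9a9 and Dusp14 were lost without any 1 array and that of Cadps in 4 of the 6 fits. P2rx3, an ATP-gated channel, was measured by 3 probe sets that passed, with differences of 1.59 and 1.40 in those over the floor in both conditions, while the third rose from a Ctr mean of 3.66, near the floor, to 5.76. The call of the brightest was lost without Ctr 2, C2 1 or C2 3.

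The remaining large decreases were mostly of modest level. Among named genes with means of at least 4 in both conditions, Gfra2, Syt16 and Nrn1 fell most. Their differences were -1.28 (adjusted p = 0.0106), -1.15 (adjusted p = 0.0157) and -1.05 (adjusted p = 0.0119). Gfra2 and Nrn1 passed in all 6 fits that left out 1 array and Syt16 in 3 of them. Nnat (neuronatin), an imprinted gene of the developing brain, measured 8.06, 7.99 and 7.94 in Ctr and 7.22, 7.29 and 7.22 in C2 (difference -0.75, SE 0.055, adjusted p = 0.00464), and it was the 1 of 28 imprinted genes to pass. In C4 it was 8.03, 8.21 and 8.18, above C2 by 0.89 (adjusted p = 0.000404). Selenbp1, a selenium-binding protein, fell by 0.91 (adjusted p = 0.0253), Anxa4, an annexin, by 0.88 (adjusted p = 0.0251), Heph, a copper-dependent ferroxidase, by 0.76 (adjusted p = 0.0422), the adaptor Efs by 0.75 (adjusted p = 0.0217) and Rnpc3, of the minor spliceosome, by 0.74 (adjusted p = 0.0206). Each of these 5 calls was lost in at least 4 of the 6 fits that left out 1 array, and the further probe sets over the floor of Selenbp1, Efs and Rnpc3 did not pass. Npnt, the integrin ligand nephronectin, fell by 0.72 (adjusted p = 0.0226) and the metalloprotease Adamts1 by 0.49 (adjusted p = 0.0331), whereas the protease inhibitor Timp4 rose by 0.55 (SE 0.047, adjusted p = 0.00626), from 9.59, 9.68 and 9.67 to 10.28, 10.13 and 10.16. The calls of Npnt and Adamts1 were lost in 5 of the 6 fits.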

How the data were processed

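RNA of aOBSC neurospheres was measured on Affymetrix whole-genome mouse expression arrays. The deposited values were made by the authors with GCRMA and are on the log2 scale: background was corrected by probe sequence and the arrays were brought to a common distribution. The version of GCRMA is not given in the sources used here. Of 45101 probe sets, 64 controls were left out. By the annotation, 34945 probe sets carried 1 symbol, 932 several and 9160 none, and Entrez numbers matched RefSeq GRCm38.p6 for 34741. Where several probe sets measured a gene, the brightest on average across the series was used.

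Linear models were fitted to the 9 arrays together (limma 3.58.1, R 4.3.3), each condition having its own mean, with an intensity trend in the variance prior (6 residual and 0.574 prior degrees of freedom) and Benjamini-Hochberg adjustment over 45037 probe sets. SE is the standard error of the difference. The fit was tested on simulated data. The replicate numbers in the labels were not taken as pairs. The number of arrays limits the precision, and 12350 probe sets had 1 value on all arrays.

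Gene lists (55 in all, written from general knowledge) were described by counts and medians, with no set test. The comparison, the lists and the rules were chosen with earlier results of these data known. Named genes are the 20 largest increases and 15 largest decreases among genes that passed, with means of at least 4 and no overlap between the arrays, up to 3 members of smallest p in each list and the 3 largest changes each way near the floor. Other list members were named after their values were seen, were computed under the alternatives only within list counts, and are given as examples. The alternatives were a replicate block, the 6 arrays alone, filters, other variance priors, centring, other probe sets and single arrays left out.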

Additional observations from a re-analysis of the deposited data

How the results depend on the processing

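Same-numbered Ctr and C2 arrays had deviations from their condition means that correlated by 0.01, -0.04 and 0.12. These values cannot show whether equal numbers share a culture or day, which the sources used here do not state. With the replicate block, 237 probe sets passed (163 higher, 74 lower), with 5 stress response genes, 3 serine, asparagine and folate enzymes, 8 synthetases, 7 glycolysis and hypoxia genes and 1 respiratory chain subunit. The 6 Ctr and C2 arrays alone gave 371 probe sets (263 higher, 108 lower) and 4 of the enzymes, 7 synthetases, 9 glycolysis genes and 2 respiratory subunits. The robust variance prior gave 45 (30 higher, 15 lower) and 3, 2, 3, 3 and 1 genes of these 5 lists. The filter on probe sets over 4 on at least 3 arrays gave 1825 (1169 higher, 656 lower) and 16 respiratory subunits. Centring gave 548 lower probe sets, 583 higher ones and a shift of -0.03 in every difference.

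With single arrays left out, 323 to 516 probe sets passed, 201 to 325 of them higher and 101 to 191 lower, with 7 to 8 stress response genes, 2 to 4 enzymes, 7 to 10 synthetases, 10 to 13 glycolysis genes and 2 to 6 respiratory subunits. The number of probe sets that differed by at least 1 was 38 and ranged from 37 to 51. Of the 107 named genes, 51 passed without each array in turn, 15 in none of these fits and 22 in every setting. With cross-hybridising probe sets left out, Gfra2 (0.0143) and Ifi35 (0.0878) had the opposite sign, but the probe sets left were near the floor in both conditions, so that no direction can be read from them. No further probe set over the floor passed for Aars, Acot2, Acsl3, Acsl4, Cebpg, Cnp, Cplx2, Ddit3, Diablo, Egr2, Fbl or Foxo3. The same held for Hspa9, Id2, Igfbp5, Lss, Mknk1, Npnt, Pcdh19, Plxnc1, Polk, Rbpj, Slc9a9, Sparc and Xbp1. Some but not all passed for Gstm1, Hspa8, Stard4 and Stard5. The cause of these changes was not tested.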

Other observations

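Over all probe sets, 38 differed by at least 1 between the C2 and Ctr means (27 higher, 11 lower), and 31 of these passed the test. In 10 of the genes that passed, the 3 Ctr arrays held 1 value, among them Atf5, Slc4a10, Slc25a33 and Wars. Near the floor of the arrays, Ly96 was read at 3.55, 3.55 and 3.54 in Ctr and 4.60, 4.30 and 4.54 in C2 (adjusted p = 0.0157), Cnbd2 at 3.71 in each Ctr array and 4.11, 4.22 and 3.96 in C2 (adjusted p = 0.049), and Srpk3 at 4.33, 4.29 and 4.44 in Ctr and 3.48, 3.64 and 3.27 in C2 (adjusted p = 0.0254). Of 32 antigen presentation and interferon genes, 2 were higher (6.25%, against 1.67% of all genes) and 1 was lower. Ifitm3 rose by 0.30 (adjusted p = 0.00596) and B2m by 0.17 (adjusted p = 0.0126), a call lost in 4 of the 6 fits that left out 1 array, and the second B2m probe set differed by -0.02 (adjusted p = 1). The lower gene, Ifi35, was near the floor in C2 (adjusted p = 0.0398), and its call was lost in 5 of the 6 fits. Bckdhb, of branched-chain amino acid breakdown, rose by 0.52 (adjusted p = 0.00935), from 8.26, 8.31 and 8.28 to 8.84, 8.75 and 8.82. Of 29 cadherins and protocadherins 2 were higher (6.9%, against 1.67% of all genes) and 1 was lower (3.45%, against 0.846%). Pcdh15 fell by 0.71 (adjusted p = 0.0086), while Pcdh19 and Fat3 rose by 0.42 (adjusted p = 0.0359) and 0.61 (adjusted p = 0.0353), calls lost in 6 and 5 of the 6 fits.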
